A study of Mus musculus with 8 samples.

Results

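Calf muscle of mice given a peony extract was examined by setting the 2 libraries of these mice, called RP, against the 6 other libraries of the experiment. Members were the genes for which both RP libraries lay outside the whole range of the other 6, and these were 1133 of 13174 genes tested. Of them, 591 lay above that range and 542 below it. All 8 libraries came from gastrocnemius muscle of C57BL/6 mice, made from 500 ng of total RNA with a Lexogen QuantSeq kit, which reads the 3′ ends of transcripts. Mice of the Control and RP groups received 1000000 Lewis lung carcinoma cells, a mouse tumour line that causes muscle wasting, under the skin in 100 µl of saline, and Normal mice received saline alone. When tumours had grown for 2 weeks, mice were regrouped so that tumour size matched. The RP group, 2 libraries, then received Paeonia lactiflora, extracted with 30% ethanol, at 100 mg/kg in 200 µl of water by mouth each day for 2 weeks. The Normal and Control groups, 3 libraries each, received 200 µl of water. The labels list an age of 4 weeks and do not say at which step. They also do not say whether the libraries of a group are separate animals, so p-values measure the spread between these libraries only, which may be technical.

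The deposited tables of the 6 Normal-titled and Control-titled libraries carry the other group's name in their file names and headers, and which is right could not be settled. The contrast used here, RP minus the mean of both other groups, has the same value either way, since the groups enter it with equal weight. The groups are therefore called Normal-titled and Control-titled throughout, and no statement on tumour-bearing against tumour-free mice is made. RP mice had received tumour cells and 1 of the other groups had not, so the contrast mixes the extract with tumour status. These cannot be told apart in it. That contrast sets RP against the midpoint of the other groups on a log scale, so a gene whose other groups lie far apart can pass the test while RP sits at the level of 1 of them. The range rule asks for more, since RP must lie beyond all 6 libraries. Total counts ran from 9528011 to 12333767 per library, with 9528011 in RP 1 and 10082410 in RP 2. Haemoglobin transcripts took 0.862% of the counts in RP 1 and 3.83% in RP 2, against 1.41 to 19.7% in the others. The transcripts that define muscle fibres were abundant in every library, as the summed level of 14 myofibre markers was 93543 to 147960 CPM (counts scaled to the library's size, with TMM factors).

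Skeletal muscle burns fuel by glycolysis in the cytoplasm and by oxidative phosphorylation in mitochondria, and the gastrocnemius is mostly made of fast fibres that rely heavily on the first. Ppargc1a encodes PGC-1α, a coactivator that works with nuclear receptors and with the factors NRF1, GABPA and ERRα to raise the transcription of mitochondrial genes. Its own promoter is known to answer to cAMP and calcium signals through a cAMP response element. A muscle also holds nerve, with axons wrapped in myelin made by Schwann cells, as well as vessels, fat and connective tissue, and all of these add RNA to a bulk library.

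Only 14 genes passed edgeR's quasi-likelihood test at an adjusted p under 0.05, which is 0.106% of those tested. Of these, 13 were higher in RP (0.0987%) and 1 was lower (0.00759%). In what follows, called refers to this test unless another is named. DESeq2, tried as an alternative, called 87 genes higher (0.66%) and 30 lower (0.228%). The share of all tested genes with both RP libraries outside the range of the others was 8.6%, made up of 4.49% above and 4.11% below. The genes that met both criteria were 4: Ppargc1a, Hk2 and Snai3 above, and Drp2 below. Both criteria read the same libraries, so meeting both is not independent support.

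**Figure D1:**
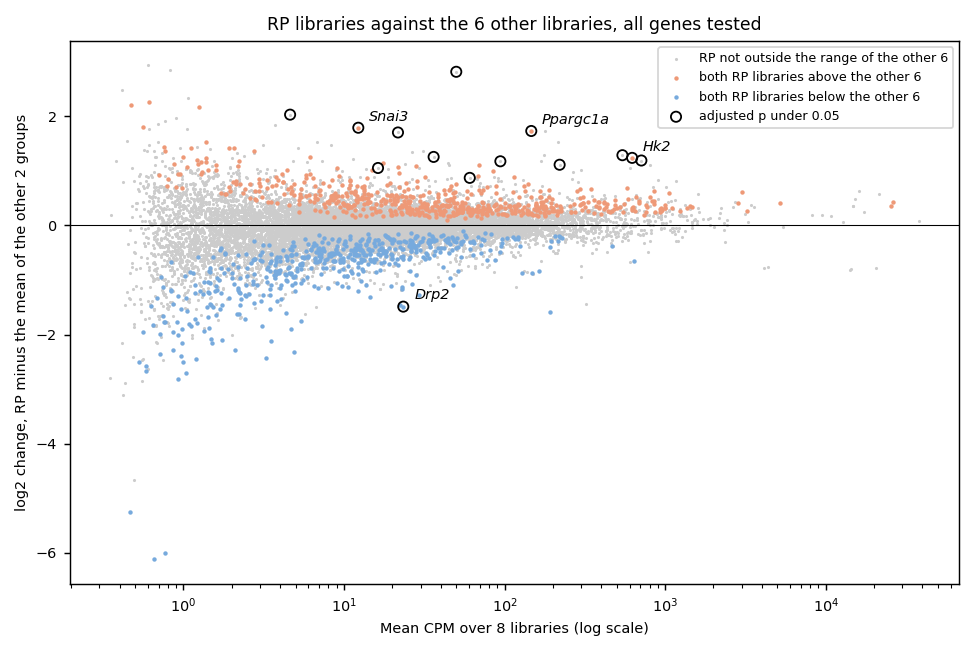
Each point is 1 of the 13174 genes tested, with its mean CPM over 8 libraries (log axis) against the log2 change of RP from the mean of the other groups. Orange and blue points are the 591 and 542 genes with both RP libraries above or below the other 6, and circles mark the 14 genes with an adjusted p under 0.05, of which the 4 also outside the range are named.

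The promoters of Ppargc1a and Hk2 are shown because these were the most abundant of the genes that met both criteria, and because each holds a single half-site of the cAMP response element at nearly the same place. Each line gives 300 bases from RefSeq (GRCm38.p6, the coordinates of mm10), 250 before the transcript start and 50 after it, on the gene's own strand, which is the minus strand for both. The window of Ppargc1a is chr5:51567676-51567975 and lies within the annotated span of the gene, which begins farther upstream. The window of Hk2 is chr6:82774405-82774704. Capitals mark the half-site, TGACGT read on the opposite strand.
Ppargc1a: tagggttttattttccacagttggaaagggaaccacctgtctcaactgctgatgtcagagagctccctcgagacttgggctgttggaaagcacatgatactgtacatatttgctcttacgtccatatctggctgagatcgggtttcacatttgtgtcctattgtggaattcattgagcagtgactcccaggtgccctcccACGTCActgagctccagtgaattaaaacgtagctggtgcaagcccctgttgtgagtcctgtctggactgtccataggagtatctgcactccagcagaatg
Hk2: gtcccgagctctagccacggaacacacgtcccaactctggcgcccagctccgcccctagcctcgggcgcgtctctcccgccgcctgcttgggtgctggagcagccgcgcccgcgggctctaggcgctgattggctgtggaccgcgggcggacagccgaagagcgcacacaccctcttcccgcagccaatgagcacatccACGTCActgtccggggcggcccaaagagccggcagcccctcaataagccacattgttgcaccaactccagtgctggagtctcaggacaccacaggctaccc
The first capital base lies at -50 relative to the start in Ppargc1a and at -51 in Hk2. The longest stretch that the promoters have in common contains it and reads CCACGTCACTG. Searched on both strands, that stretch occurs in 9 of 27025 promoters of the table (0.0333%) and in 4 of the 10443 that belong to tested genes. Of the 464 that belong to genes above the range, 2 hold it, and these are Ppargc1a and Hk2 themselves. The stretch was found after these genes had been chosen, so its share is a description. The half-site was among several motifs searched and its place was a reason for showing these promoters, so that place is a description too. The half-site alone is common. It was present in 7.64% of the 27025 promoters kept and in 11.6% of those of tested genes. The share was 14.7% for genes above the range and 9.05% for the 420 promoters of genes below it. The full element TGACGTCA, which contains the half-site, was in 3.17% of the promoters of tested genes and in 4.74% of those of genes above the range. These shares were not set beside those of genes of matched abundance. A match shows only that these letters are present. For Snai3 and Drp2 no promoter entry was available, so none is shown.

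Ppargc1a (chr5:51454249-52115853) had the smallest adjusted p of the genes that met both criteria. Its level was 179.9, 209 and 98.7 CPM in the Normal-titled libraries, 38.5, 40.2 and 50.4 in the Control-titled libraries, and 328 and 229 in RP 1 and RP 2. RP lay above all 6 others, the Normal-titled libraries came next, and the Control-titled libraries lay lowest with no overlap between groups. The log2 change was 1.73 ± 0.22 (SE), or 3.32-fold over the midpoint of the others (adjusted p = 0.00916, edgeR). Without RP 2 its call was kept, and without RP 1 it was lost, as was every other call. In both of these fits a lone RP library has no spread of its own. The adjusted p of Ppargc1a ran from 3.56e-10 to 0.958 over 20 alternatives, in 17 of which it was called. Here and below, 1 of the 20 is the main fit read at a threshold of 0.1, which every called gene passes.

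Hk2 (chr6:82725025-82774454) encodes hexokinase 2, the muscle enzyme that phosphorylates glucose on entry and so traps it in the cell. The gene stood at 753, 679 and 527 CPM in the Normal-titled, 284, 317 and 314 in the Control-titled and 1276 and 833 in the RP libraries. The order of the groups was that of Ppargc1a, again without overlap. Hk2 rose by 1.24 ± 0.17 on the log2 scale (2.36-fold, adjusted p = 0.0138, edgeR). This call was kept without RP 2 and, like every other, lost without RP 1. It held in 14 of 20 alternatives, whose adjusted p ran from 4.46e-08 to 0.958.

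Snai3 (chr8:122454204-122460809), a Snail family zinc-finger repressor, was read at 17.3, 7.95 and 11.6 CPM in the Normal-titled, 3.35, 4.4 and 4.52 in the Control-titled and 29.5 and 19.6 in the RP libraries. RP was again above every other library, with RP 1 the highest. The log2 change was 1.79 ± 0.25 (3.47-fold, adjusted p = 0.0143, edgeR). Leaving out RP 1 ended this call along with every other, and leaving out RP 2 did not. Of 20 alternatives 15 kept it, with adjusted p from 1.7e-07 to 0.958.

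Drp2 (chrX:134404124-134456574) encodes dystrophin-related protein 2, which in Schwann cells joins periaxin to the dystroglycan complex at the myelin surface. It was the only gene edgeR called lower. Its CPM was 28.7, 31.1 and 33.3 in the Normal-titled libraries, 16.9, 30.7 and 26.7 in the Control-titled libraries and 11.6 and 8.12 in RP. The other groups overlapped each other and RP lay below both, with Control 1 the nearest. Drp2 fell by 1.49 ± 0.24 on the log2 scale, a level 2.8-fold lower (adjusted p = 0.0389, edgeR). In these bulk libraries, fewer cells of a type and less RNA per cell cannot be told apart. Drp2 was called in 9 of 20 alternatives, with adjusted p from 6.15e-06 to 0.958, and was not called with either RP library left out.

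**Figure D2:**
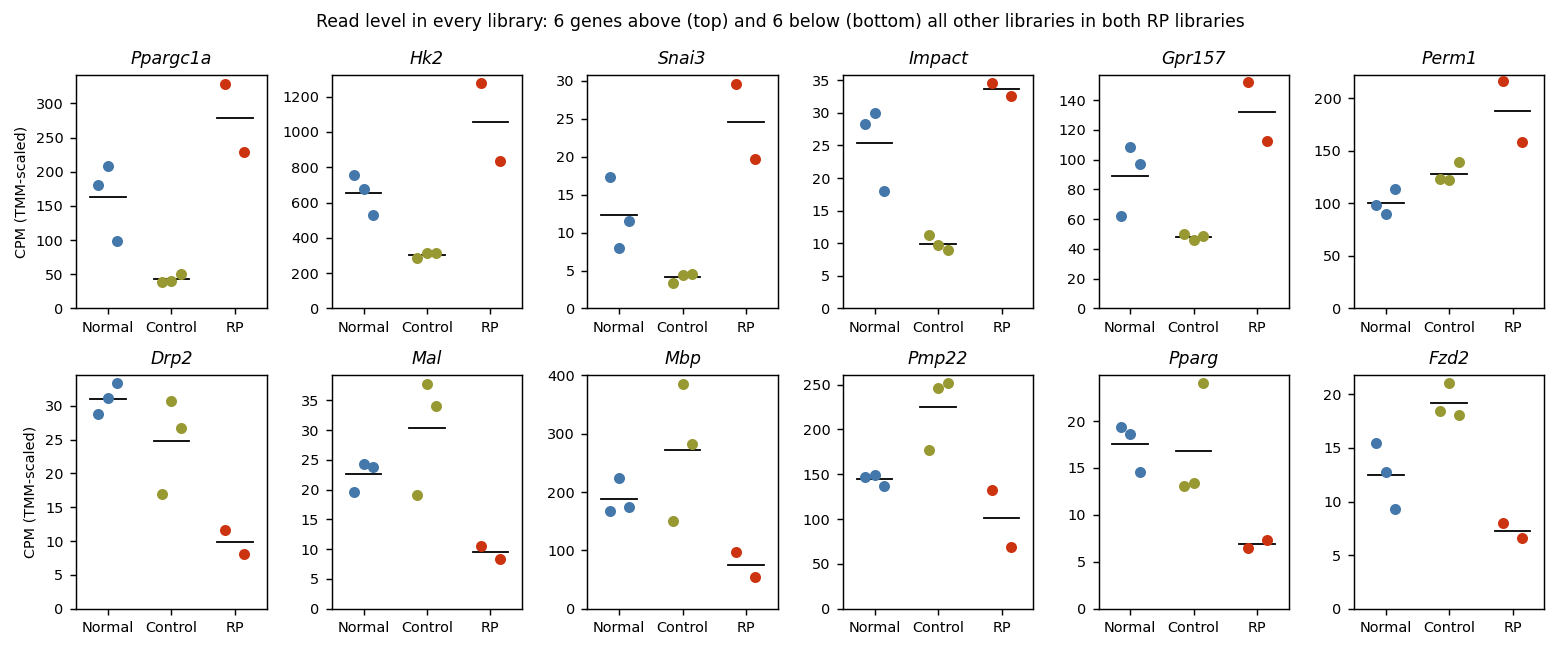
CPM on a linear axis from 0 in each of the 8 libraries (points) and the group mean (line), for 6 genes with both RP libraries above the others and 6 with both below. Ppargc1a, Hk2, Snai3 and Drp2 passed the test and the other 8 genes did not; in Ppargc1a, Hk2, Snai3, Impact and Gpr157 the Control-titled libraries are the lowest, while in Perm1 they lie between the Normal-titled and RP libraries.

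The 10 other called genes were all higher in the contrast, yet RP lay within or near the range of 1 other group. Nr4a3, an orphan nuclear receptor induced in muscle by exercise, had 111 and 82.5 CPM in RP, 93.8, 61.8 and 42.5 in the Normal-titled and 0.705, 3.9 and 3.98 in the Control-titled libraries. RP 2 thus lay inside the Normal-titled range, and both RP libraries lay far above the Control-titled ones (log2 change 2.82 ± 0.33, adjusted p = 0.00916, edgeR). The other 9 had both RP libraries above all Normal-titled libraries and at least 1 of them within or below the Control-titled range. They included 3 genes of polyamine metabolism. Amd1 and Amd2 encode S-adenosylmethionine decarboxylase, which supplies the aminopropyl groups of polyamines, and Smox encodes spermine oxidase. Amd1 had 712 and 801 CPM in RP, 909, 668 and 895 in the Control-titled and 107, 104 and 138 in the Normal-titled libraries. Amd2 shares 94% of the 50-base words at its 3′ end with Amd1, so reads of one may be counted for the other. Smox stood at 304 and 349 CPM in RP against 313, 281 and 279 and 66.2, 64.1 and 105 in the same order. The remaining 6 were Slc41a3, a magnesium transporter, Gm4841, Cited4, a transcriptional coactivator, C130080G10Rik, Dupd1, a dual-specificity phosphatase, and Slc37a4, the glucose 6-phosphate transporter. C130080G10Rik overlaps A530058N18Rik, from which its reads cannot be told apart because the strand counted is not stated. Slc41a3 narrowly missed the range rule, with RP 2 at 128.5 CPM against 130.8 in Control 1. Ptges3l, which was not called, narrowly met the rule, with 172 and 174 CPM in RP against 169.8 in Control 1.

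**Figure D3:**
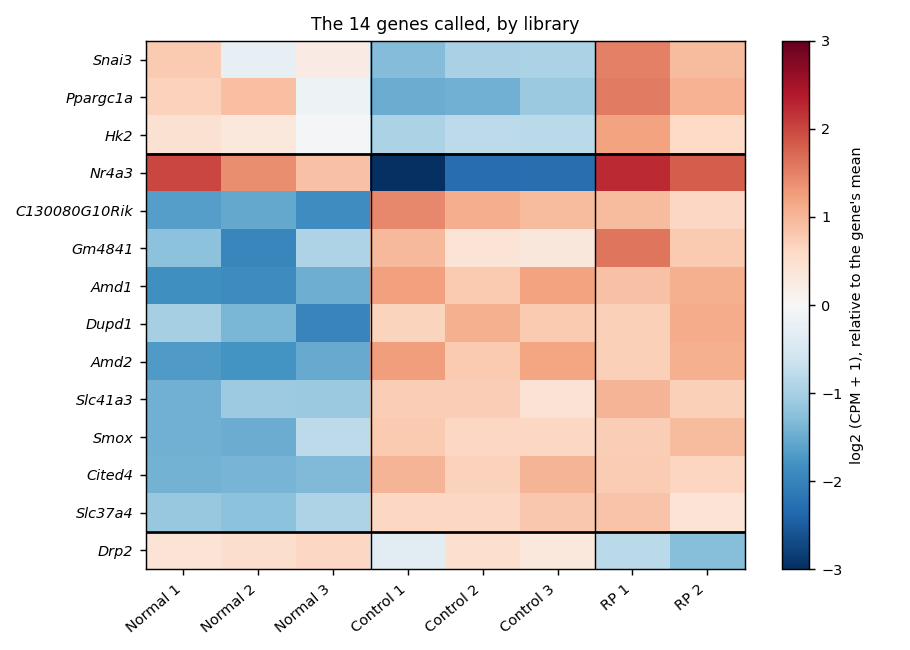
Colour gives log2 (CPM + 1) of each called gene in each of the 8 libraries, relative to the gene's own mean. The 3 genes above the upper line had both RP libraries above all others, Drp2 under the lower line had both below, and the 10 between had RP at or near the level of the Control-titled libraries, or of the Normal-titled libraries for Nr4a3.

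Among the genes with both RP libraries above the range but not called by edgeR, the 9 with the smallest p and a mean of at least 5 CPM follow. Impact, which restrains the amino acid sensor GCN2, had 34.6 and 32.6 CPM in RP, 28.3, 29.96 and 18 in the Normal-titled and 11.2, 9.7 and 8.95 in the Control-titled libraries (log2 change 1.08 ± 0.19, adjusted p = 0.056, edgeR). Gpr157, a G protein-coupled receptor, stood at 152 and 112 CPM in RP against 62.4, 109 and 97.1 and 50.3, 46.3 and 48.5 in the same order. Of 20 alternatives, 7 called Impact and 5 called Gpr157, the main fit at a threshold of 0.1 among them for both. The Normal-titled libraries were the nearer group for both of these genes. For Itgb1bp2, which encodes the muscle integrin partner melusin, the Control-titled libraries were the nearer group, at 127, 148 and 133 CPM beside 179 and 152 in RP and 74.2, 44.9 and 55.9 in the Normal-titled libraries. Sh3bgr, a muscle-enriched SH3-binding protein, showed the same order with 824 and 759.6 CPM in RP, 681, 676 and 624 and 405, 328 and 355. Mrpl45, a protein of the large mitochondrial ribosomal subunit, had 97.1 and 91.6 CPM in RP and 54.8, 57.1 and 56.5 and 64.6, 68.8 and 61.4 in the Normal-titled and Control-titled libraries. The narrow spread of Mrpl45 among the 6 others left a clear gap to RP, with a log2 change of 0.64 ± 0.12 (adjusted p = 0.0783, edgeR). The scaffold gene Mpp3, F830016B08Rik, the calcineurin-dependent factor Nfatc1 and Glcci1 complete the 12 higher genes, with log2 changes of 0.89 to 1.15 and adjusted p of 0.0741 to 0.0952. Glcci1 shares exons with an overlapping gene, so its reads cannot be assigned to it alone.

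Of the 591 genes above the range, 440 had a higher mean in the Control-titled than in the Normal-titled libraries and 151 the reverse, while the Control-titled mean was the higher in 6591 of all 13174 genes tested. Of the 542 below the range, the Control-titled mean was the lower in 288 and the Normal-titled mean in 254. RP 1 lay farther from the others than RP 2 in 374 of the 591 and in 273 of the 542 genes below. Whether a gene lay above or below also went with its abundance. With genes split by mean CPM into 5 classes of equal size, 8.73% of the most abundant class lay above and 1.63% below, and in the least abundant class 2.16% lay above and 5.2% below. The shares given for the gene lists that follow are therefore to be read beside these as well as beside the 4.49 and 4.11% over all genes.

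Oxidative phosphorylation genes, which encode the respiratory chain and ATP synthase, lay above the range more often than those of any other list described here. Of 60 members tested, 31 had both RP libraries above the other 6 (51.7%) and none had both below. All 60 members belong to the most abundant class, where 8.73% of genes lay above. The number above was 33 with RLE scaling or without a filter, and 27 with upper-quartile scaling or with a mean of at least 5 CPM. The median log2 change was 0.28, against -0.02 over all genes, and 59 of 60 were above 0. None passed the test after adjustment, while 27 were higher at an unadjusted p under 0.05 (4.98% of all genes were), and DESeq2 called 3 of the 60, beside 0.66% of all genes called higher. In 57 of the 60 the Control-titled mean exceeded the Normal-titled mean. Averaged over the list, log2 (CPM + 1) relative to the mean of all libraries was 0.21 and 0.20 in RP 1 and RP 2, 0.03 to 0.11 in the Control-titled and -0.24 to -0.14 in the Normal-titled libraries. The groups did not overlap on this scale, and the RP libraries differed less from each other than either did from the nearest Control-titled library.

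The members above the range came from 4 of the respiratory complexes. Ndufb5, a subunit of complex I, had 1075 and 1001 CPM in RP, 808, 841 and 801 in the Control-titled and 684, 664 and 756 in the Normal-titled libraries (log2 change 0.46 ± 0.13, adjusted p = 0.273, edgeR). Cycs, which encodes cytochrome c, had 765 and 705 CPM against 684, 623 and 646 and 505, 369 and 383 in the same order. Atp5j, a subunit of ATP synthase, had 619 and 605 CPM against 523, 516 and 519 and 407, 377 and 355, and its exons overlap those of Gabpa. All 3 genes had RP on top and the Normal-titled libraries at the bottom, with small gaps. Cycs shares 50% of the 50-base words at its 3′ end with other genes, so reads may be counted for one another. Cox7a1, the muscle isoform of a cytochrome c oxidase subunit, did not follow the range rule, since RP at 710.4 and 816 CPM spanned the Control-titled libraries at 801, 732 and 694. The single member with a log2 change below 0 was Sdhd, a membrane anchor of complex II, at 47 and 114 CPM in RP, 177, 136 and 193 in the Control-titled and 109.9, 72.2 and 75.6 in the Normal-titled libraries.

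Among 21 regulators of mitochondrial biogenesis, 3 lay above the range and none below: Ppargc1a, Perm1 and Sirt3. Perm1, a muscle gene induced by PGC-1α and ERRs, had 217 and 159 CPM in RP, 98.5, 90.2 and 114 in the Normal-titled and 123, 122 and 139 in the Control-titled libraries (log2 change 0.72 ± 0.15, adjusted p = 0.106, edgeR). Sirt3, a mitochondrial deacetylase, had 15.1 and 14.3 CPM in RP against 11.6, 13 and 12.7 in the Control-titled libraries, and its exons overlap those of other genes. Esrra, the gene of ERRα, at 75.3 and 82.9 CPM in RP, and Tfam, which packages mitochondrial DNA, at 48.4 and 53.8, lay within the range or near its edge (adjusted p = 0.935 and 0.752). The NRF1 motif, GCGCA and GCGC with any 1 base between them, was found in the promoters of 11 of 47 oxidative phosphorylation members (23.4%), beside 10.1% of the promoters of all tested genes and 12.5% of those of genes above the range. The ERR motif TNAAGGTCA was in 0.709% of the promoters of tested genes and in 1.94% of those of genes above the range, which is 9 of 464. The ETS motif bound by GABPA, ACCGGAAGT, was in 2.15% of the promoters of tested genes, 2.16% of those of genes above the range and 2.13% of those of oxidative phosphorylation members. Motifs named MEF2 and E-box were also searched. They were in 3.07 and 10.2% of the promoters of tested genes and in 3.23 and 9.27% of those of genes above the range. The share of a list does not depend on the RP values, since members above and within the range were not separated. No background of matched abundance was used, though genes above the range were more often abundant. A link of these motifs to the RP values was not tested.

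Glycolysis and glycogen genes made up the other metabolic list with many members above the range. Of 31 tested, 10 had both RP libraries above (32.3%) and none below, 24 belong to the most abundant class, and the median log2 change was 0.33. The number above was 9 with RLE scaling or without a filter, 8 with upper-quartile scaling and 7 of 30 with a mean of at least 5 CPM. Hk2 was the only member edgeR called, and 14 were higher at an unadjusted p under 0.05 (4.98% of all genes were). DESeq2 called 7, beside 117 of all 13174 genes. EdgeR called 6 without a filter on low counts, where it called 163 of 17852 genes. Without Normal 3 it called 8, and 100 of 13124 genes in all. Pkm, which encodes the last enzyme of glycolysis, had 1501 and 1289.5 CPM in RP, 1141, 1252 and 1090.4 in the Control-titled and 691, 756 and 743 in the Normal-titled libraries (adjusted p = 0.118, edgeR). Phka1, a regulatory subunit of phosphorylase kinase that drives glycogen breakdown, had 478 and 457 CPM against 369.8, 396 and 368 and 245, 195 and 247 in the same order. Pfkm, the muscle phosphofructokinase, followed with 1121 and 945, 853, 943 and 846 and 782, 614 and 696 CPM, where RP 2 and Control 2 lay almost level. Hk2 differs from these genes in the order of the other groups, since its Normal-titled libraries were well above its Control-titled ones.

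EdgeR called no gene of the fibre lists, while DESeq2 called 5 of the 19 fast-fibre genes and none of the slow-fibre genes or myofibre markers. Of all genes, DESeq2 called 0.66% higher. All 19 fast-fibre genes had a log2 change above 0 (median 0.30), with 2 above the range, Tnnc2 and Eno3. Fewer slow-fibre genes were above 0, at 5 of 17, and Mb, which encodes the oxygen store myoglobin, was the 1 above the range. The list of 14 myofibre markers had 3 above the range (21.4%), Acta1, Tnnc2 and Mb, with a median of 0.26. Myh4, the fastest myosin, had 19727 and 15336 CPM in RP, 14457, 11221 and 18740.3 in the Normal-titled and 11810.4, 14897 and 11457 in the Control-titled libraries, so RP 2 lay within the range. Fatty acid oxidation had 4 of 35 above, Cpt1b, Acads, Acot13 and Ucp3, and a median of -0.03.

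**Figure D4:**
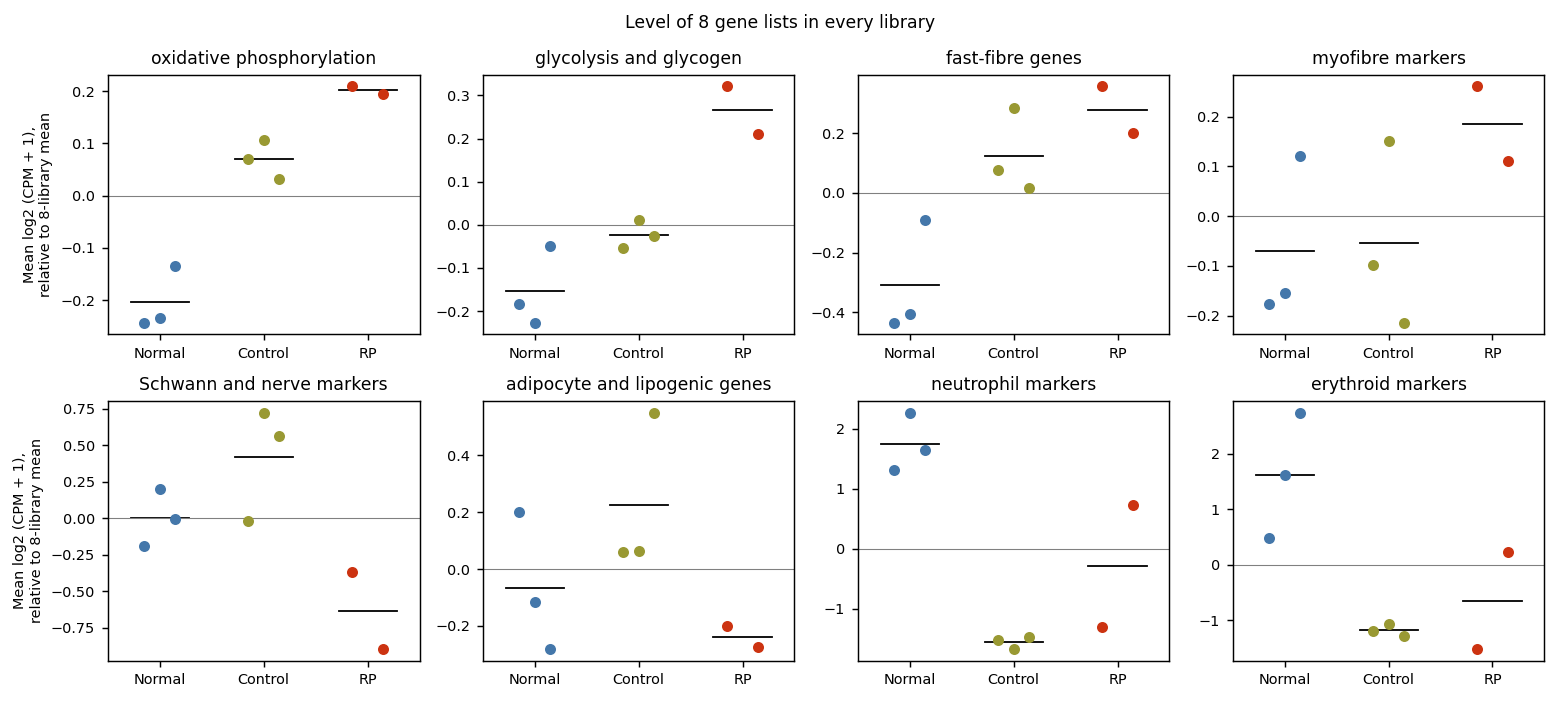
For 8 gene lists, the mean log2 (CPM + 1) of the tested members relative to the 8-library mean, in each library (points) with the group mean (line). Both RP libraries lie above all others for oxidative phosphorylation and glycolysis and below all others for Schwann and nerve markers, whereas for neutrophil and erythroid markers RP 1 and RP 2 lie far apart.

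Schwann cell and nerve markers were the list most often below the range. Both RP libraries lay below all others for 6 of the 14 members tested (42.9%, against 4.11% of all genes), among them Mbp, Pmp22, Mag and Mal. All 14 had a log2 change below 0, with a median of -0.91, 8 were lower at an unadjusted p under 0.05 (4.14% of all genes were), and none was called by edgeR. DESeq2 called 5, beside 0.228% of all genes called lower. Drp2 is not on this list. Mbp, the basic protein that compacts myelin, had 97.9 and 53.7 CPM in RP, 167, 225 and 174 in the Normal-titled and 149.6, 384 and 282 in the Control-titled libraries (log2 change -1.58 ± 0.32, adjusted p = 0.0986, edgeR). RP 2 was the lowest library and Control 2 the highest, and Control 1 lay nearest to RP. Mal, a raft protein of myelin, had 10.6 and 8.43 CPM against 19.5, 24.2 and 23.9 in the Normal-titled and 19, 37.8 and 34 in the Control-titled libraries. Pmp22, the peripheral myelin protein, was at 132 and 69.4 CPM in RP and 147, 149.7 and 137 in the Normal-titled libraries, so that RP 1 lay close under them.

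The spread of these markers among libraries was wide. The summed level of all 18 listed members was 497 CPM in RP 1 and 274 in RP 2, 590.1 to 821 in the Normal-titled libraries and 756 to 1471 in the Control-titled libraries. RP was lowest, and the Control-titled libraries differed among themselves by more than the gap between RP and the Normal-titled libraries. The neurofilament gene Nefl had no count in either RP library. The share of the samples that was nerve is not given by the labels, and its part in these values was not tested. Without RP 2 the median of the list was -0.57 and without RP 1 it was -1.33.

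Markers of fat cells and vessels held smaller numbers below the range. Of 25 adipocyte and lipogenic genes 4 lay below (16%) and none above, with a median of -0.42. Pparg, the nuclear receptor that drives fat cell formation, had 6.47 and 7.3 CPM in RP, 19.3, 18.7 and 14.6 in the Normal-titled and 13.1, 13.4 and 24 in the Control-titled libraries (log2 change -1.32 ± 0.27, adjusted p = 0.0986, edgeR). Adipoq, the fat cell hormone adiponectin, lay just below the range at 73 and 83.5 CPM, with Normal 3 at 85.9. Cfd and Acaca were the other members below. Of 21 endothelial markers 4 lay below (19%), Cdh5, Emcn, Cldn5 and Sox18. Cdh5, the cadherin of endothelial junctions, had 49.9 and 45.3 CPM in RP against 76.8, 63.7 and 58.1 and 72, 65.9 and 78.6, a narrow gap (adjusted p = 0.265). None of the 14 mural and smooth muscle markers and none of the 25 macrophage and monocyte markers lay outside the range, and none of either list had an unadjusted p under 0.05.

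Blood transcripts set RP 1 and RP 2 apart. The summed level of 17 neutrophil markers was 42.6 CPM in RP 1 and 528 in RP 2, against 16.8 to 29.3 in the Control-titled and 1000.0 to 2038 in the Normal-titled libraries. The 16 erythroid markers summed to 9089 CPM in RP 1 and 40127 in RP 2, against 12964 to 16385 and 43693 to 237720 in the same order. Ngp, Ltf, Elane and Mpo had no count in RP 1, and Elane, Mpo and the erythroid gene Rhag had none in RP 2. None of the 14 neutrophil and 15 erythroid markers tested lay outside the range in both RP libraries. With haemoglobin genes and the ribosomal RNA gene Rn45s removed before scaling, 15 genes were called, 14 of them the same, and 34 oxidative phosphorylation and 6 Schwann members lay outside the range. With the level of Hba-a1 as a covariate, 8 genes were called, 7 of them the same.

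**Figure D5:**
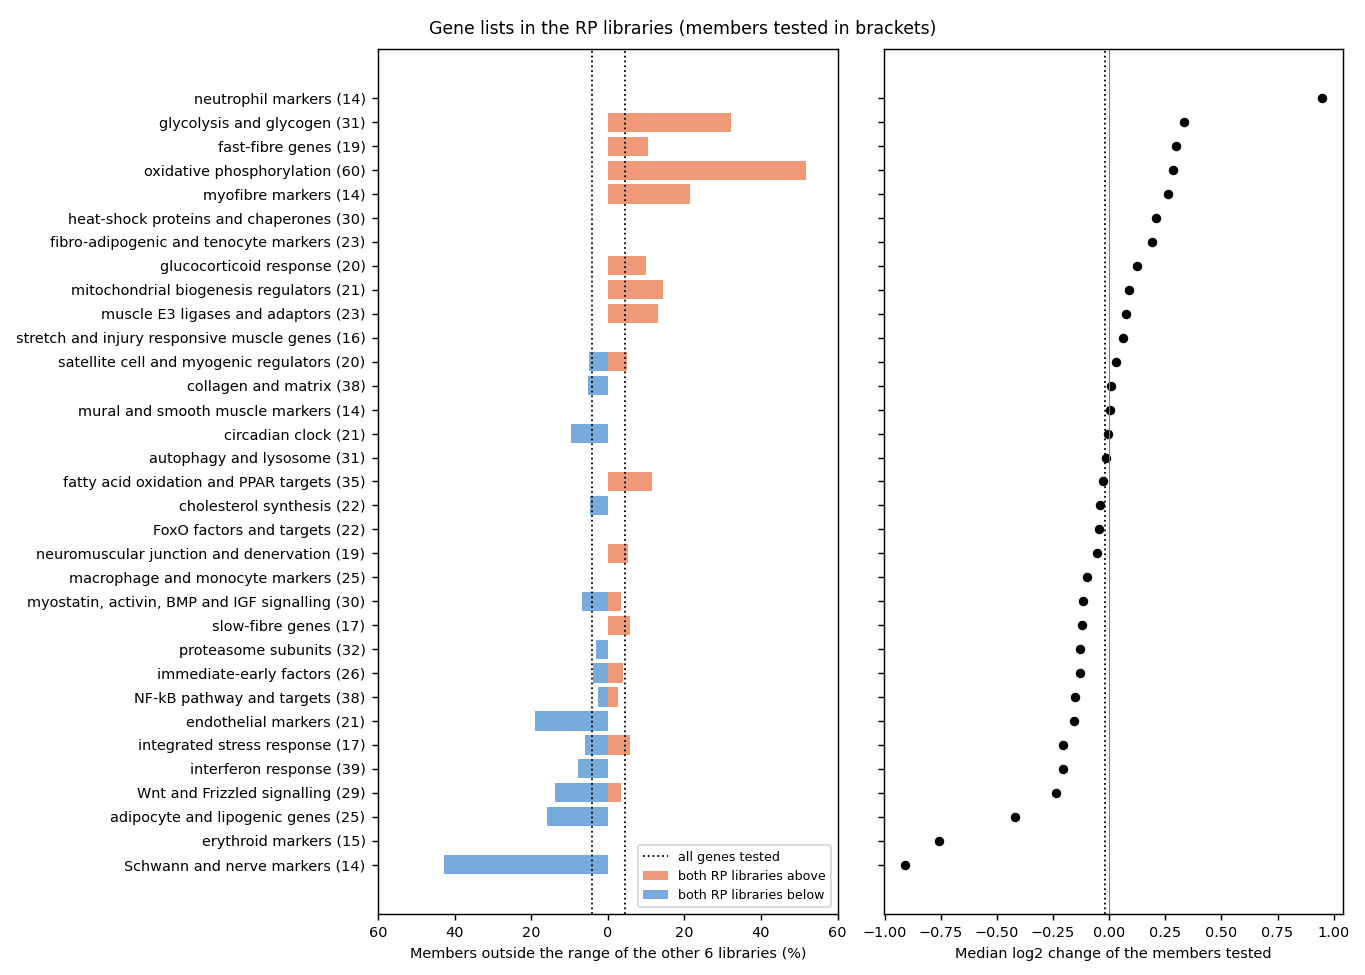
For each gene list with at least 10 members tested, the left panel gives the percent of members with both RP libraries above (orange) or below (blue) the other 6, beside the shares over all genes (dotted), and the right panel the median log2 change. Oxidative phosphorylation (51.7% above) and Schwann and nerve markers (42.9% below) have the longest bars.

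The series names NF-κB signalling and the muscle ubiquitin ligases that tag proteins for the proteasome, and these were examined by the same contrast. Of 23 ligases and adaptors, edgeR called none, DESeq2 called 1, and 3 lay above the range, Trim55, Traf6 and Wwp1. That is 13%, beside 4.49% of all genes and 8.73% of the most abundant class, which holds 11 of the 23. Wwp1 was almost level, at 119.5 CPM in RP 2 and 119.4 in Control 2. Traf6 had 8.534 CPM in RP 2 and 8.025 in Control 1. With upper-quartile scaling, 2 members lay above. Trim63, which encodes MuRF1, had 1188 and 1021 CPM in RP, 1222, 1912 and 1098 in the Normal-titled and 278, 308 and 237 in the Control-titled libraries. RP 1 thus lay within the Normal-titled range and RP 2 just under it, and both far above the Control-titled libraries. The log2 change was 0.83 ± 0.19 (adjusted p = 0.134, edgeR), and 2 of 20 alternatives called Trim63, DESeq2 and edgeR without a filter (0.0028, the lowest of a range up to 1). Fbxo32, which encodes atrogin-1, had 399.9 and 404 CPM in RP, between 174, 172 and 151 in the Control-titled and 719, 1248 and 1463 in the Normal-titled libraries (log2 change -0.11 ± 0.21, adjusted p = 0.919). That change was 0.15 with Hba-a1 as a covariate and 0.01 without Normal 3. Its exons overlap those of Gm15943. Of 32 proteasome subunits edgeR and DESeq2 called none and 1, Psmd3, lay below the range, with a median of -0.13.

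For NF-κB, 1 of 38 pathway genes and targets lay above the range, Traf6, and 1 below, Irak1, against 4.49 and 4.11% of all genes. EdgeR and DESeq2 called none. Nfkb1 had 11.9 and 9.77 CPM in RP, 14.5, 11 and 13.9 in the Normal-titled and 16.3, 15.8 and 18.4 in the Control-titled libraries, so that RP 1 lay within the range (log2 change -0.46 ± 0.19, adjusted p = 0.487, edgeR). Rela, which encodes the p65 subunit, had 30.6 and 32.1 CPM in RP and 34.6, 32 and 31.4 and 28.7, 28.6 and 31.9 in the others, and all groups overlapped. Nfkbia, the inhibitor that holds NF-κB in the cytoplasm, stood at 309 and 278 CPM in RP, between 465, 419 and 417 and 181, 295 and 225. A p above the threshold does not show that these genes were equal. Mstn, which encodes the growth inhibitor myostatin, lay below the range with 27.2 and 36.9 CPM in RP, 45.3, 48.7 and 44.2 in the Normal-titled and 42, 38.5 and 39.1 in the Control-titled libraries. RP 2 was close under Control 2, and the log2 change was -0.42 ± 0.15 (adjusted p = 0.428).

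The remaining genes below the range with the smallest p and at least 5 CPM were not called by edgeR in the fit of all 8 libraries. Each was called by 2 to 6 of 20 alternatives, with adjusted p ranging up to 1. DESeq2 gave Fzd2 an adjusted p of 0.00456 and Dach1 one of 0.0071. Of 20 alternatives, 6 called Rusc2, the main fit at a threshold of 0.1 among them, and 3 called Net1. Fzd2, a Wnt receptor, had 7.97 and 6.58 CPM in RP, 15.5, 12.7 and 9.32 in the Normal-titled and 18.4, 21.1 and 18.1 in the Control-titled libraries (log2 change -1.09 ± 0.23, adjusted p = 0.106, edgeR). Net1, which activates RhoA, had 18.2 and 33.3 CPM in RP against 68.5, 56.5 and 49.4 and 48.3, 44.7 and 61.7, a wide gap in which RP 1 was the lower library. Shisa2 stood at 19.5 and 33.7 CPM in RP, 49.8, 47.3 and 65.6 and 55.6, 45.1 and 49.1, with the other groups overlapping. Rusc2, Dach1, Fam166b, Tdrd7 and Cpne1 had log2 changes of -1.20 to -0.82. Rusc2 and Fam166b have overlapping exons and both had RP lowest and the Normal-titled libraries highest, so they may not be separate measurements. Cpne1 shares exons with Rbm12 and Gm28036, and 90% of the 50-base words at its 3′ end with Gm28036.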

How the data were processed

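Gastrocnemius RNA was measured in 8 libraries, 3 Normal-titled, 3 Control-titled and 2 RP. Each deposited table gives 1 library's raw counts, not normalized, by gene symbol in 23282 rows, of which 5430 had no count in any library. Bowtie2, edgeR and the mm10 build are named, per the submitters' processing notes. Versions, the counting tool, the strand counted and the annotation are not given in the sources used here. The 35 symbols listed more than once were kept as separate rows. Groups follow the sample titles.

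In R 4.3.3, edgeR 4.0.16 (filterByExpr, TMM, quasi-likelihood F-test, 2-sided) was fitted to all 8 libraries with 3 groups. The contrast was RP minus the mean of the Normal-titled and Control-titled coefficients, with Benjamini-Hochberg adjustment over 13174 genes and a threshold of 0.05. The common biological coefficient of variation was 0.195. A gene was outside the range when both RP libraries had a TMM-scaled CPM above the highest or below the lowest of the other 6. SEs are the log2 change divided by the square root of F. No pair of libraries within a group was alike within sampling noise. Counts differed between them by a chi-square of 7.96 to 158 per degree of freedom.

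The genes named were the called genes outside the range with a mean of at least 5 CPM, filled by smallest p to 12 per direction, up to 4 members of each of 34 lists, and fixed genes. Called genes within the range, and further members given as examples, were added after their values were seen, among them Esrra, Tfam, Pfkm, Sdhd, Pmp22 and Ptges3l. The members and lists were chosen with earlier results of these data known. Lists are described by counts and medians, without a set test. Of the tested symbols 12546 were found in RefSeq under the same name, 583 under a synonym and 45 under neither. Single values of some list members are not reported here. The pipeline was tested on simulated data. Alternatives were RLE and upper-quartile scaling, no filter or at least 5 CPM, DESeq2 1.42.0, limma-voom 3.58.1, the 6 other libraries as 1 group, a replicate block, a threshold of 0.1, a 1.5-fold minimum, removal of haemoglobin genes and Rn45s, Hba-a1 as a covariate, and leaving out each library.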

Additional observations from a re-analysis of the deposited data

How the results depend on the processing

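The number of genes called, 14 with edgeR, was 15 with RLE scaling, 13 with upper-quartile scaling, 10 with limma-voom and 15 without haemoglobin genes and Rn45s. It was 163 without a filter on low counts, 9 with a mean of at least 5 CPM, 117 with DESeq2, 39 at a threshold of 0.1, 1 against a 1.5-fold minimum and 8 with Hba-a1 as a covariate. With the 6 other libraries as 1 group, so that the gap between the Normal-titled and Control-titled libraries counted as spread, edgeR called 0 genes, while 611 had an unadjusted p under 0.05. Leaving out 1 library gave 0 to 100 called genes. It was 60 without Normal 1, 5 without Normal 2, 100 without Normal 3, 8 without Control 2, 5 without Control 3 and 0 without RP 1. Without RP 1, edgeR left 732 genes with an unadjusted p under 0.05, and the spread of the lone RP 2 was taken from the other groups. Without RP 2, 11 were called, 6 of them among the 14. The causes of these differences were not tested.

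With the replicate number as a replicate block, 9 genes were called, 8 of them among the 14. Same-numbered libraries did not deviate together, with correlations of -0.07 to 0.08 over 7 pairs, beside -0.08 to 0.07 over 14 other pairs. This gave no sign of pairing by number. It cannot exclude pairing, since the deviations are taken from means of few libraries. The number of genes outside the range, 1133, was 835 to 1309 under other filters and scalings and 1329 to 4000 when a library was left out, at most 1652 with both RP libraries kept. It was 3289 without RP 1 and 4000 without RP 2, where a single library had to lie outside. None of the 14 called genes changed direction under any alternative. Of the other named genes, 8 did at least once, and of these Dnajb1 alone was called under any alternative, higher without a filter (adjusted p 0.000847, range up to 1). When 1 library was left out, the log2 change ran from -1.78 to 2.07 in Il1b, -2.04 to 2.40 in Camp and -1.99 to 1.92 in S100a8. It ran from -3.81 to 3.32 in Ltf, whose lowest value rests on no count in RP 1, and -0.23 to 2.10 in Dnajb1. In all of these the change was lowest without RP 2 and highest without RP 1. It ran from -0.028 to 0.37 in Abcc9, lowest without RP 1, from -0.24 to 0.014 in Fbxo32, highest without Normal 3, and from -0.025 to 0.043 in Rela. With the 6 other libraries as 1 group it was -0.15 in Il1b, -0.34 in Camp, -0.47 in Ltf and -1.52 in S100a8. Fbxo32 was at 0.15 with Hba-a1 as a covariate. Rela was at -0.001 with upper-quartile scaling, -0.007 with at least 5 CPM and -0.014 with the covariate. With 2 RP libraries of 9528011 and 10082410 counts, small changes of low genes could not be resolved.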

Other observations

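Shares of the gene groups that follow are to be read beside the 4.49% above and 4.11% below over all genes. Of 39 interferon response genes, 3 lay below (7.69%) and none above, namely Ifi44, Ddx58 and Ifih1. The median log2 change was -0.21, and none was called by edgeR or DESeq2. Ifih1, a sensor of viral RNA, had 3.88 and 3.6 CPM in RP, 6.39, 4.98 and 4.37 in the Normal-titled and 9.26, 4.9 and 6.69 in the Control-titled libraries. Of 29 Wnt and Frizzled genes, 4 lay below (13.8%), the receptors Fzd2, Fzd3, Fzd6 and Lrp5. Above lay 1 (3.45%), Fzd9, and the median was -0.24. EdgeR called none and DESeq2 called 2, Fzd2 among them. Fzd9 had 18.1 and 17.1 CPM in RP, 8.37, 7.75 and 9.71 in the Normal-titled and 12.4, 16.3 and 16.5 in the Control-titled libraries, the opposite side from the other receptors.

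Among 21 clock genes, Per3 and Clock lay below (9.52%, against 4.11% of all genes) and none above. Per3, a period gene, had 10.7 and 8.64 CPM in RP, 17.6, 11.2 and 12.4 in the Normal-titled and 23.5, 22.1 and 21.2 in the Control-titled libraries. The hour of dissection is not in the labels, and its part was not tested. Of 20 glucocorticoid response genes, 2 lay above (10%, against 4.49% of all genes), Zbtb16 and Sgk1. Zbtb16, a zinc-finger factor induced by glucocorticoids, had 82.4 and 59.4 CPM in RP, 50.3, 48.6 and 53.9 in the Normal-titled and 29.9, 39.6 and 34.7 in the Control-titled libraries, with a log2 change of 0.75 and an adjusted p of 0.0986. Smad3, which carries the signal of myostatin and TGF-β, had 78.6 and 80.1 CPM in RP, 30.8, 46.8 and 50.9 in the Normal-titled and 61.2, 55.3 and 66.4 in the Control-titled libraries and lay above all 6. Smad6, an inhibitory Smad, lay below all 6 with 3.56 and 3.39 CPM in RP. None of the 22 FoxO factors and targets, 31 autophagy and lysosome genes or 30 heat-shock proteins and chaperones lay outside the range, and edgeR called none of them. DESeq2 called 1 of each list.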
